A study of Mus musculus with 59 samples.

Results

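The genes described here are 8 that mark tanycytes or handle thyroid hormone: Rax, Gpr50, Dio2, Crym, Vim, Thra, Thrb and Foxj1. They were chosen by symbol, and each matched 1 of the 21935 genes in the count table. The series concerns joint activation of the receptors for the gut hormones PYY and GLP-1. C57BL/6 mice received 1 intraperitoneal injection of vehicle or of the peptide combination labelled IP118/PY115 and were killed 4 h later. Age, sex and diet of the mice are not given in the sources used here. From frozen brains cut at 10 µm, laser capture took 4 mm² per animal from each of 3 sites: the hypothalamic paraventricular (PVN) and arcuate (ARC) nuclei, and in the brainstem the solitary tract nucleus (NTS). Polyadenylated RNA was sequenced in 59 libraries, 10 for each region and treatment except the vehicle ARC, which has 9. The labels tie no library to an animal, so libraries of different regions that share an animal were compared as independent.

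Tanycytes are elongated cells that line the floor and lower walls of the third ventricle, next to the ARC, and send processes into the tissue below. They take up thyroxine and convert it with the deiodinase encoded by Dio2 to the active hormone, which reaches neurons and binds the nuclear receptors encoded by Thra and Thrb. Higher on the ventricle wall, and in the fourth ventricle next to the NTS, the lining consists mostly of ependymal cells with motile cilia, whose gene program is driven by Foxj1.

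Library totals ran from 3964093 to 28510118 counts. Levels below are in CPM, counts scaled to library size, with TMM factors over all 59 libraries. Each dissection carried its nucleus' markers in vehicle mice: Avp averaged 6267 CPM in PVN, Agrp 595 CPM in ARC and Dbh 183 CPM in NTS. The libraries were numbered within each group in the order of deposit, and those numbered 1 stood apart. In all 3 regions vehicle library 1 had the highest level of Klf9 among vehicle libraries and treated library 1 had the lowest among treated ones; in NTS these were 102 and 63.7 CPM. The hormone-responsive gene Hr did the same in all 3 regions, with 62.9 and 24.3 CPM in NTS. Earlier results of these data had pointed to the same libraries. For Klf9 and Hr these libraries thus lie on the side of the other treatment. Whether their labels are right cannot be told from these files, and treatment values over all libraries hold only as far as those labels do. Treatment results are therefore given with and without the libraries numbered 1, and because the choice of these libraries rests on measured levels, the p-values that omit them are too low.

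Positions are on GRCm38. Gpr50 (ENSMUSG00000056380) is at chrX:71663667-71669257 on the plus strand and Dio2 (ENSMUSG00000007682) at chr12:90724552-90738438 on the minus strand. Crym (ENSMUSG00000030905) is at chr7:120186380-120202111 on the minus strand, and Vim (ENSMUSG00000026728) at chr2:13573927-13582826 on the plus strand. Thra (ENSMUSG00000058756) is at chr11:98740638-98769006 on the plus strand, Thrb (ENSMUSG00000021779) at chr14:17660261-18038090 on the plus strand, and Foxj1 (ENSMUSG00000034227) at chr11:116330704-116335399 on the minus strand. Thra shares 263 exon bases with Nr1d1, a clock gene on the opposite strand that averaged 83.6 to 97.4 CPM in the vehicle groups. The library kit keeps strand, but the strand setting of the counting is not given in the sources used here, so reads from those bases cannot be told apart.

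The promoters of Dio2 and Gpr50 are shown because of the RNA levels of these genes. Of the 8 genes, Dio2 had the largest fold change after IP118/PY115 where the filter on low counts was passed. With every library kept, that change reached an adjusted p under 0.05 in no region. Gpr50 had the largest fold of ARC over both other regions. Whether any promoter element has a part in these levels was not tested. Both are the 250 bases before the RefSeq transcription start, GRCm38.p6, written 5′ to 3′ on the gene's strand. Capitals mark a cAMP response element, the sequence TGACGTCA.
Dio2, chr12:90739039-90739288, minus strand: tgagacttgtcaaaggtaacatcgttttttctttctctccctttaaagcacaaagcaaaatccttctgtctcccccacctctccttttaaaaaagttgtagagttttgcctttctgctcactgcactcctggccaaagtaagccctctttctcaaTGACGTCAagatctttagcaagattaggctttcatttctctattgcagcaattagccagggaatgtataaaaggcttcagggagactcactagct
Gpr50, chrX:71663417-71663666, plus strand: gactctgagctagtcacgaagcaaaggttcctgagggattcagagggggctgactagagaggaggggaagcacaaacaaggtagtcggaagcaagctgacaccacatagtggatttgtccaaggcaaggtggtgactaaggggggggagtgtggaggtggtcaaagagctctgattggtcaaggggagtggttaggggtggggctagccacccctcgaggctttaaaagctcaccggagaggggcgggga
The element begins 95 bases before the RefSeq start of Dio2. That start lies upstream of the gene coordinates given above, which come from GENCODE M21. Windows of 300 bases, from 250 before to 50 after the start, were searched for 4 of the genes (Vim, Dio2, Gpr50 and 2 starts of Thrb). Rax, Crym, Thra and Foxj1 were not searched. Among these 5 windows, on both strands, the element was found only in that of Dio2, and in 588 of all 32851 windows (1.79%). The TATA box TATAAA was in the windows of Dio2, Vim and 1 start of Thrb, and in 13.6% of all windows. The thyroid hormone response element (AGGTCA, 4 bases of any kind, AGGTCA) and the glucocorticoid response element (AGAACA, 3 bases of any kind, TGTTCT) were in none of the 5 windows, and in 0.0152% and 0.00913% of all windows.

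Compared per kilobase of exon, Thra stood far above the others in the vehicle ARC, at 122 CPM per kb. Vim followed with 11.1, Thrb with 7.93 and Gpr50 with 4.37 CPM per kb. Dio2 stood at 2.29, Foxj1 at 2.07, Crym at 1.25 and Rax at 0.397 CPM per kb. Thra and Vim led in the other regions too, with 143 and 14.7 CPM per kb in PVN and 148 and 15.2 CPM per kb in NTS, and Rax was last in all 3. In bulk tissue, fewer cells of a type and less RNA per cell cannot be told apart.

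**Figure D1:**
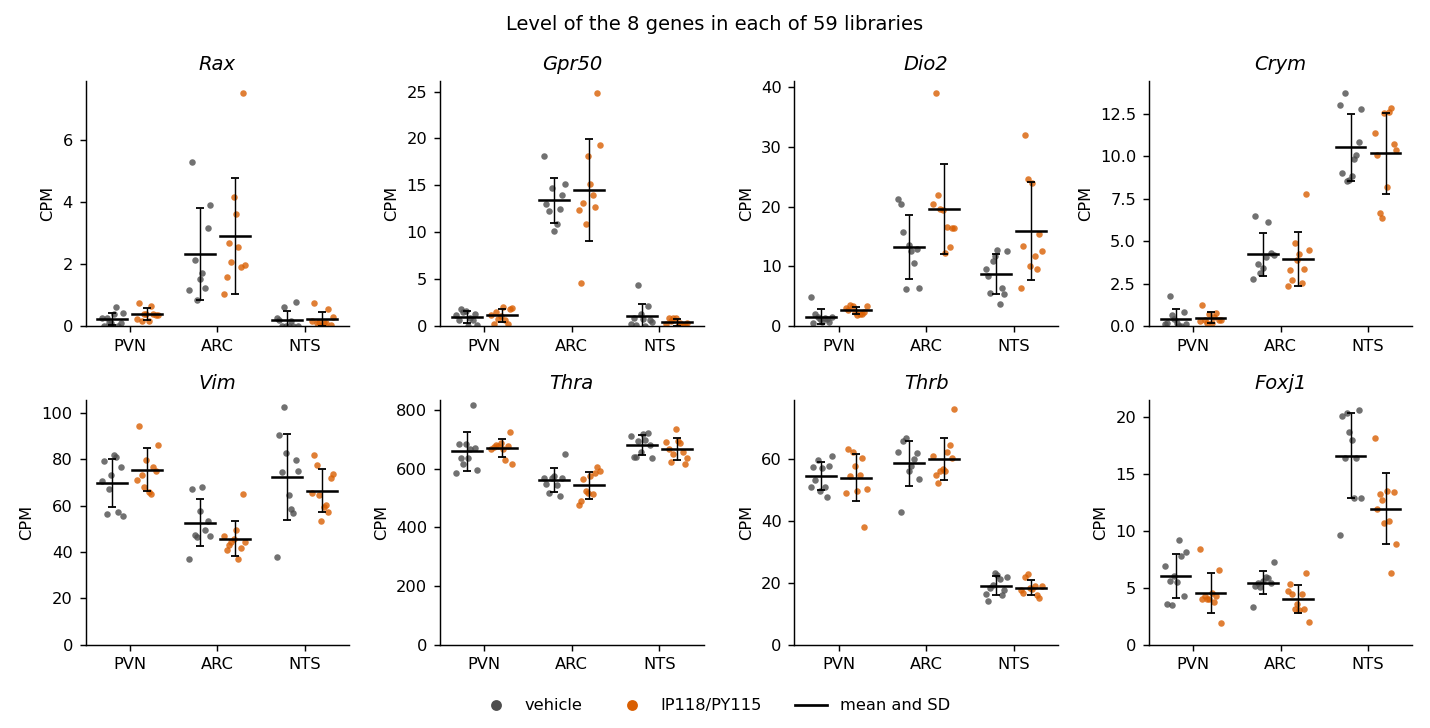
Level of each gene in CPM (y axis, linear from 0) in PVN, ARC and NTS (x axis), 1 point per library, grey for vehicle and orange for IP118/PY115; black bars are the mean and SD of 9 or 10 libraries. Rax and Gpr50 are high in the ARC alone, Dio2 in ARC and NTS, Crym and Foxj1 in NTS, while Thrb is low in NTS and Thra varies little.

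The first comparison asked how the 3 regions differ in vehicle mice. Rax and Gpr50 were high in the ARC, Dio2 in ARC and NTS, and Crym and Foxj1 in NTS. Thrb was about 3 times lower in NTS than in the hypothalamus, and Vim and Thra were slightly lower in ARC than elsewhere. Between PVN and ARC 6 of the 8 genes differed, where 46% of the 14379 genes tested did; 2 were higher in PVN (24.8% of all genes) and 4 lower (21.1%). Between PVN and NTS 4 differed, against 56.1% of all genes, 1 higher in PVN (28.3%) and 3 lower (27.8%). Between ARC and NTS 7 differed, against 61.7%, 3 higher in ARC (30.2%) and 4 lower (31.5%). Against such backgrounds the counts say nothing particular about the 8 genes. The calls are those of edgeR's quasi-likelihood test over all 59 libraries with an adjusted p (Benjamini-Hochberg) under 0.05.

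Rax (ENSMUSG00000024518, chr18:65928277-65939787, minus strand), a homeobox gene needed to form the retina and hypothalamus and kept in adult tanycytes, was scarce everywhere. In the vehicle ARC it ranged from 0.824 to 5.28 CPM with a median of 1.71 (7 to 49 reads). In PVN it ranged from 0 to 0.619 CPM (median 0.181) and in NTS from 0 to 0.759 CPM (median 0.0733), with 5 of 10 NTS libraries at 0. No vehicle library of PVN or NTS reached the lowest ARC library. Its mean of 2.32 ± 1.49 CPM in ARC (SD, n = 9) was 9.53-fold that of PVN (log2 difference of PVN minus ARC -3.25 ± 0.51 SE, adjusted p = 2.51e-07) and 11.5-fold that of NTS (adjusted p = 1.05e-08). PVN and NTS did not differ detectably at this depth (log2 0.27 ± 0.64, adjusted p = 0.740).

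Gpr50, an orphan receptor related to the melatonin receptors, was also highest in the ARC. The vehicle ARC libraries ran from 10.1 to 18.2 CPM with a median of 13. Those of PVN ran from 0 to 1.79 CPM (median 0.996) and those of NTS from 0 to 4.35 CPM (median 0.700). The groups did not overlap with the ARC, where the mean was 13.4 ± 2.42 CPM (SD, n = 9). The ARC stood 14.1-fold above PVN (adjusted p = 1.96e-11) and 12.2-fold above NTS (adjusted p = 9.03e-12), while PVN and NTS were not distinguished (log2 -0.21 ± 0.48 SE, adjusted p = 0.734).

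Dio2, the deiodinase that activates thyroxine, was low in PVN and higher in ARC and NTS. In the vehicle ARC it ranged from 6.18 to 21.3 CPM (median 12.9), in NTS from 3.66 to 12.8 CPM (median 8.97) and in PVN from 0.503 to 4.82 CPM (median 1.31). The PVN and ARC libraries did not overlap; PVN and NTS overlapped only through vehicle library 1 of PVN, at 4.82 CPM, the next highest being 2.04 CPM. The ARC was 7.96-fold above PVN (adjusted p = 1.18e-11) and NTS 5.30-fold above PVN (adjusted p = 4.11e-09). Between ARC and NTS the log2 difference of 0.59 ± 0.27 just missed the threshold (adjusted p = 0.0503), and it passed under 6 of 12 alternatives. The largest value, 1.70 (adjusted p = 6.91e-05), had an oligodendrocyte score as covariate. The 10 oligodendrocyte markers summed to a median of 814 CPM in vehicle ARC and 5494 CPM in vehicle NTS, so that covariate cannot be well separated from region. Astrocytes also express Dio2. The 12 astrocyte markers summed to a median of 7561 CPM in vehicle NTS, 3824 CPM in PVN and 2983 CPM in ARC, an order that differs from that of Dio2, and their part in the Dio2 level was not tested.

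Crym encodes mu-crystallin, a protein that binds thyroid hormone in the cytosol, and it ranked the regions differently. Vehicle NTS libraries ran from 8.56 to 13.8 CPM (median 9.94), ARC libraries from 2.76 to 6.46 CPM (median 4.08) and PVN libraries from 0 to 1.79 CPM (median 0.161). None of the 3 groups overlapped another. NTS stood 27.6-fold above PVN (log2 of PVN minus NTS -4.79 ± 0.31, adjusted p = 1.53e-21) and 2.48-fold above ARC (adjusted p = 1.03e-06), and ARC 11.1-fold above PVN (adjusted p = 2.72e-14). The order NTS, ARC, PVN thus held in every vehicle library.

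Vim, the intermediate filament of tanycytes, ependymal cells, reactive astrocytes and vessel walls, varied little. It ranged from 55.6 to 81.9 CPM in vehicle PVN (median 71.9), 36.9 to 67.9 CPM in ARC (median 49.4) and 37.8 to 103 CPM in NTS (median 74.8), and all groups overlapped. PVN exceeded ARC by 1.34-fold (log2 0.42 ± 0.12, adjusted p = 0.00192) and NTS exceeded ARC by 1.38-fold (adjusted p = 0.000345); PVN and NTS were not distinguished (adjusted p = 0.745). All 12 endothelial and mural markers were also higher in PVN than in ARC, with a median log2 difference of 1.73. All 12 were called, against 24.8% of all genes. Those 12 were higher in NTS than in ARC too, with 11 called, against 31.5% of all genes. What they contribute to the Vim level was not tested.

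The receptor genes differed from each other in their distribution. Thra ranged from 586 to 820 CPM in vehicle PVN (median 652), 509 to 651 CPM in ARC (median 567) and 637 to 722 CPM in NTS (median 689). PVN was 1.18-fold (adjusted p = 5.42e-05) and NTS 1.21-fold (adjusted p = 1.29e-06) above ARC, with overlapping groups, and PVN and NTS did not differ detectably (log2 -0.04 ± 0.05, adjusted p = 0.437). Thrb, whose product mediates the feedback of thyroid hormone on the hypothalamus, ran from 48 to 61.2 CPM in PVN (median 55.2), 43.1 to 67.1 CPM in ARC (median 60.1) and 14.3 to 23.3 CPM in NTS (median 18.8). Every NTS library lay below every hypothalamic one. PVN was 2.85-fold (adjusted p = 1.71e-24) and ARC 3.07-fold (adjusted p = 8.02e-26) above NTS, while PVN and ARC were not distinguished (log2 -0.10 ± 0.08, adjusted p = 0.313). Per kilobase, Thra exceeded Thrb by 19.6 ± 3.33 times in PVN, 15.6 ± 2.69 times in ARC and 58.5 ± 9.95 times in NTS (SD over 10, 9 and 10 vehicle libraries), and no NTS ratio, from 45.3 upward, came near the highest in the hypothalamus, 27.4.

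Foxj1, the regulator of motile cilia, was highest in the NTS. Vehicle NTS libraries ran from 9.58 to 20.6 CPM (median 17.2), PVN libraries from 3.47 to 9.16 CPM (median 5.80) and ARC libraries from 3.29 to 7.25 CPM (median 5.37). The NTS libraries did not overlap with those of PVN or ARC. NTS was 2.77-fold above PVN (adjusted p = 2.58e-10) and 3.07-fold above ARC (adjusted p = 2.42e-11), and PVN and ARC were not distinguished (log2 0.15 ± 0.20 SE, adjusted p = 0.562). Of 20 other ciliated ependymal genes tested, 5 were higher (30.2% of all genes) and 3 lower (31.5%) in ARC than in NTS. Fam183b stood at 48 CPM in ARC and 12.1 CPM in NTS, and the microtubule gene Tppp3 at 196 CPM in ARC and 287 CPM in NTS.

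The same regional differences were measured in the treated libraries. Their group means are separate from the vehicle ones, but both sets of contrasts come from 1 fit of all 59 libraries with a shared spread estimate. Between treated PVN and ARC 6 genes differed (48.7% of all genes), between PVN and NTS 5 (58.8%) and between ARC and NTS 7 (63.8%). Each gene that differed in vehicle mice differed in the same direction after treatment. The additional one was Gpr50, at 1.13 ± 0.677 CPM in PVN and 0.389 ± 0.353 CPM in NTS (log2 1.52 ± 0.51, adjusted p = 0.00872). For Dio2 the treated difference of ARC minus NTS missed the threshold (log2 0.28 ± 0.25, adjusted p = 0.325). Of 11 alternatives it passed in 1, with an oligodendrocyte score as covariate (1.23 ± 0.31, adjusted p = 0.000994). All 10 markers of that score were lower in treated ARC than in treated NTS, so it too follows region.

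**Figure D2:**
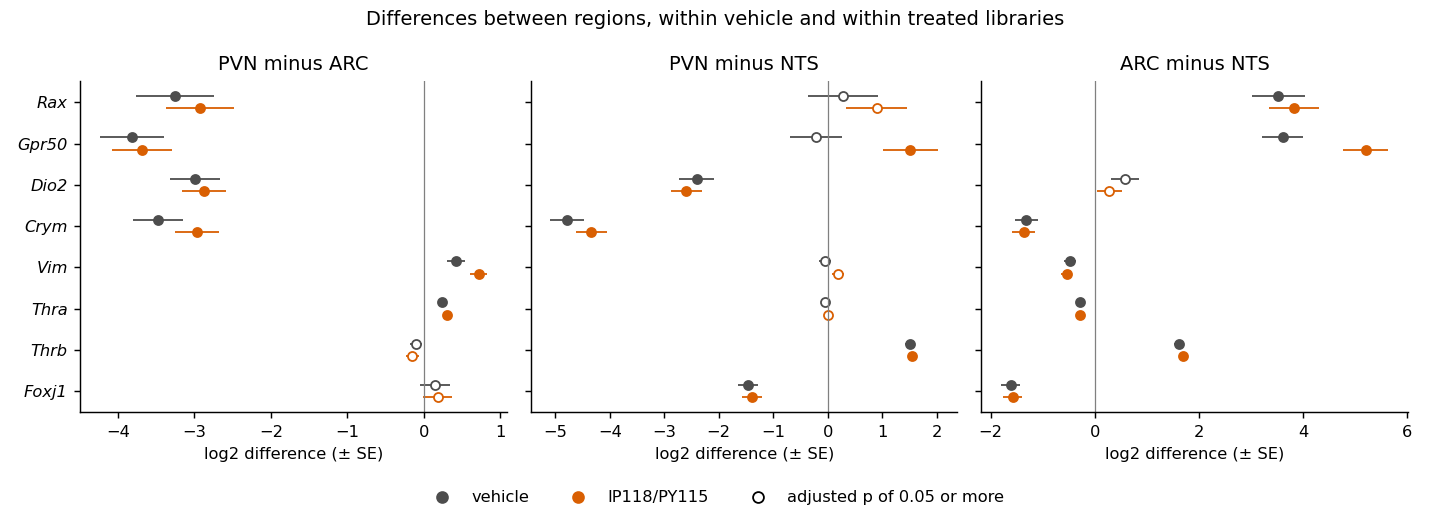
Log2 difference (x axis, ± SE) of each gene (y axis) between 2 regions, in vehicle libraries (grey) and IP118/PY115 libraries (orange); open circles did not pass the adjusted p of 0.05. Crym between PVN and NTS is at -4.79 in vehicle and -4.34 in treated libraries, and Thrb at 1.51 and 1.55.

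The label was checked against 18 further tanycyte markers. In vehicle mice 9 were higher in ARC than in PVN (21.1% of all genes) and 5 were lower (24.8%), with a median log2 difference of PVN minus ARC of -0.42 (0.01 over all genes). Frzb, a secreted Wnt antagonist, stood at 8.45 CPM in ARC and 1.14 in PVN. The sodium channel gene Scn7a stood at 23.1 and 6.94 CPM, and the collagen gene Col23a1 at 32.6 and 9.61 CPM. These genes all come from the side higher in ARC, and no values are given here for the 5 that were lower there. Against NTS, 6 were higher (30.2% of all genes) and 9 lower (31.5%) in ARC; the adhesion receptor gene Adgrv1 was at 9.07 CPM in ARC and 1.98 in NTS, whereas Slc17a8 was at 1.59 and 25.4 CPM. Of the 8 genes, only Rax and Gpr50 were thus high in the ARC alone, and outside the ARC the label tanycyte rests on genes that other cells share. In 1 vehicle ARC library the 7 pars tuberalis and pituitary markers summed to 77.7 CPM, where the median vehicle ARC library had 0.790 CPM.

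Other genes that carry thyroid hormone through the cell were read beside these. Of 15 transport, metabolism and binding genes 11 were tested. In PVN 5 were higher (24.8% of all genes) and 1 lower (21.1%) than in ARC, and 4 higher (28.3%) and 2 lower (27.8%) than in NTS, with median log2 differences of 0.46 and 0.14. The thyroxine transporter gene Slco1c1 stood at 76.2 CPM in PVN, 19.1 CPM in ARC and 34.9 CPM in NTS. Dio1 and Dio3, the other deiodinase genes, averaged 0.173 CPM or less in every vehicle group; they are named after their values were seen. Among 23 receptor partners and targets the retinoid receptor gene Rxrg followed Thrb, with 40.3 CPM in PVN, 41.9 CPM in ARC and 10.9 CPM in NTS. The gene for the releasing hormone Trh stood at 609 ± 96.8 CPM in PVN, 16.9 ± 6.55 CPM in ARC and 0.145 ± 0.196 CPM in NTS.

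The second comparison asked whether IP118/PY115 changed these genes 4 h after injection. With every library kept, none of them passed the test in any region. Dio2 was higher and Foxj1 lower in the treated group of all 3 regions, and the other 6 genes moved by at most 0.31 on the log2 scale in the regions where they passed the filter on low counts. Below that filter, Gpr50 in NTS averaged 1.07 ± 1.31 CPM after vehicle and 0.389 ± 0.353 CPM after treatment, and Rax in PVN 0.224 ± 0.203 and 0.384 ± 0.187 CPM. Without the libraries numbered 1, Dio2 was higher in treated PVN and Foxj1 lower in treated NTS at an adjusted p under 0.05. Vehicle library 1 was the highest of its group for Dio2 in PVN. For Foxj1 in NTS, vehicle library 1 was the lowest and treated library 1 the highest of their groups. Leaving these out enlarges those same changes, so both values are a description and their p-values are too low to count as a test. The filter on low counts (edgeR's filterByExpr) left 6 of the 8 genes in PVN (not Rax and Crym), 8 in ARC and 6 in NTS (not Rax and Gpr50). The count of 0 by edgeR's quasi-likelihood test compares with 0.656% of all genes called in PVN (88 of 13409), 0% in ARC and 0% in NTS. At an unadjusted p under 0.05 stood 1 gene in PVN (9.34% of all genes), 2 in ARC (7.20%) and 2 in NTS (5.80%), all of them Dio2 or Foxj1. DESeq2 called none, and voom with quality weights called Dio2 in PVN alone (3.79% of all genes).

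Dio2 in PVN ranged from 0.503 to 4.82 CPM after vehicle (median 1.31) and from 1.90 to 3.50 CPM after IP118/PY115 (median 2.49). All 10 treated libraries lay above the vehicle median, but none lay above vehicle library 1, the highest of all 20. The means were 1.55 ± 1.24 and 2.63 ± 0.605 CPM (SD, n = 10 each), a log2 change of 0.70 ± 0.30 (SE; adjusted p = 0.427). Leaving out vehicle library 1 alone gave 1.22 ± 0.24 (adjusted p = 0.00504). Without both libraries numbered 1 the vehicle range was 0.503 to 2.04 CPM, the treated range 1.90 to 3.50 CPM, 6 of 9 treated libraries lay above all vehicle ones, and the log2 change was 1.20 ± 0.25 (adjusted p = 0.0038; 3.22% of all genes called, 2.32% higher). The largest Dio2 count in PVN was 77 reads and the smallest 3, which limits the precision.

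Dio2 in ARC ranged from 6.18 to 21.3 CPM after vehicle (median 12.9) and from 12.2 to 39.1 CPM after treatment (median 18). Of the 10 treated libraries 9 lay above the vehicle median, and 2 lay above every vehicle library. The means were 13.3 ± 5.35 (n = 9) and 19.5 ± 7.53 CPM (n = 10), a log2 change of 0.56 ± 0.25 (adjusted p = 0.659) and of 0.67 ± 0.26 without the libraries numbered 1 (adjusted p = 0.430). The highest value, 39.1 CPM, was that of treated library 2, without which the change was 0.39 ± 0.21 (adjusted p = 0.738). All 10 oligodendrocyte markers were also higher in the treated ARC, with a median log2 change of 1.02 (0.96 without the libraries numbered 1) and none called. Their sum ranged from 505 to 6014 CPM there and from 491 to 1350 CPM after vehicle; with an oligodendrocyte score as a covariate the Dio2 change was 0.38 ± 0.23 (adjusted p = 0.745).

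Dio2 in NTS ranged from 3.66 to 12.8 CPM after vehicle (median 8.97) and from 6.34 to 32 CPM after treatment (median 13). Of 10 treated libraries 9 lay above the vehicle median and 5 above every vehicle library; treated library 1 was the lowest. The means were 8.69 ± 3.32 and 15.9 ± 8.17 CPM (n = 10 each), a log2 change of 0.86 ± 0.28 (adjusted p = 0.400). Without the libraries numbered 1 the change was 0.96 ± 0.27 (adjusted p = 0.127), still short of the threshold. The 12 astrocyte markers had median log2 changes of -0.11 (PVN), 0.05 (ARC) and -0.02 (NTS), and -0.12, 0.06 and -0.03 without the libraries numbered 1; none was called.

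Foxj1 moved the other way. In NTS it ranged from 9.58 to 20.6 CPM after vehicle (median 17.2) and from 6.28 to 18.1 CPM after treatment (median 12.3). Of 10 treated libraries 9 lay below the vehicle median; vehicle library 1 was the lowest of its group and treated library 1 the highest of its own. The means were 16.6 ± 3.72 and 11.9 ± 3.14 CPM (n = 10 each), a log2 change of -0.48 ± 0.15 (adjusted p = 0.342). Without the libraries numbered 1 the vehicle range was 12.9 to 20.6 CPM, the treated range 6.28 to 13.4 CPM, and the change -0.63 ± 0.13 (adjusted p = 0.0106; 1.18% of all genes called, 0.196% lower). Leaving out only vehicle library 1 or only treated library 1 gave adjusted p = 0.0845 and 0.0744.

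In ARC, Foxj1 ranged from 3.29 to 7.25 CPM after vehicle (median 5.37) and from 1.97 to 6.24 CPM after treatment (median 3.97), with 9 of 10 treated libraries below the vehicle median. The log2 change was -0.44 ± 0.19 (adjusted p = 0.601), and -0.53 ± 0.19 without the libraries numbered 1 (adjusted p = 0.286; 1.14% of all genes called). In PVN it ranged from 3.47 to 9.16 CPM and from 1.85 to 8.39 CPM (medians 5.80 and 4.12), with 8 of 10 treated libraries below the vehicle median. The change there was -0.40 ± 0.21 (adjusted p = 0.595), and -0.53 ± 0.21 without the libraries numbered 1 (adjusted p = 0.235). Of the ciliated ependymal markers 10 of 16 tested were lower in treated PVN, 13 of 18 in ARC and 16 of 18 in NTS; edgeR called 0, and 1, 3 and 1 had an unadjusted p under 0.05. Its median log2 changes of -0.06, -0.06 and -0.14 (-0.05, -0.06 and -0.19 without the libraries numbered 1) were smaller in size than the changes of Foxj1, and those of all genes were -0.02, 0.00017 and 0.00053.

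**Figure D3:**
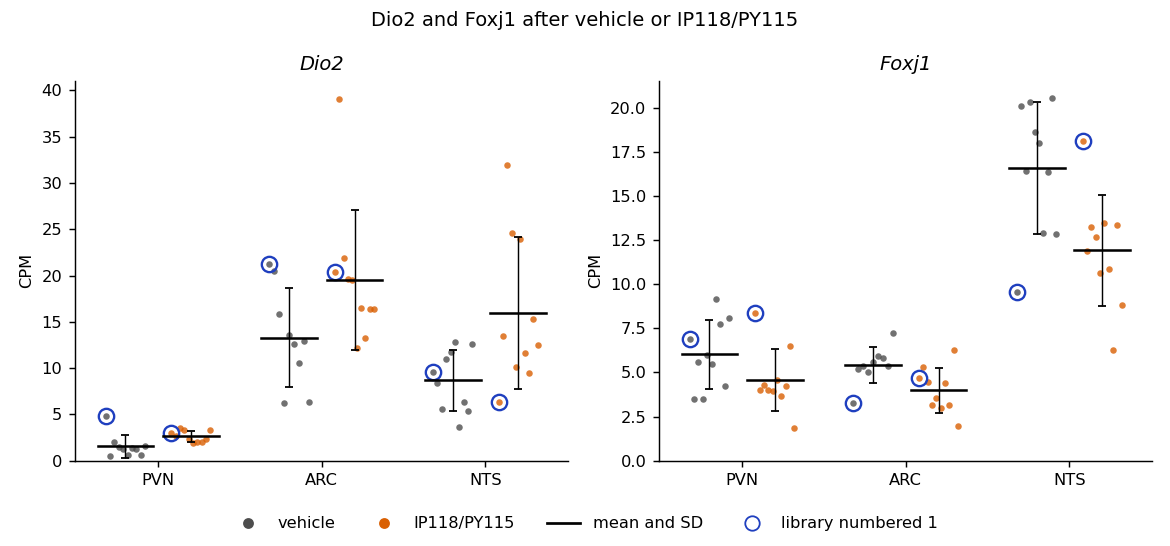
Level of Dio2 (left) and Foxj1 (right) in CPM (y axis, from 0) by region (x axis), 1 point per library, grey for vehicle and orange for IP118/PY115, with mean and SD; blue circles mark the libraries numbered 1. The circled vehicle library of PVN is the highest for Dio2 there at 4.82 CPM, and in NTS the circled pair for Foxj1 stands at 9.58 CPM (vehicle) and 18.1 CPM (treated).

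The other genes gave small or uncertain values. Rax in ARC averaged 2.32 ± 1.49 CPM after vehicle and 2.91 ± 1.86 CPM after treatment (log2 0.31 ± 0.35, adjusted p = 0.886), and its treated maximum of 7.51 CPM came from library 9. Gpr50 in ARC averaged 13.4 ± 2.42 and 14.5 ± 5.44 CPM (log2 0.10 ± 0.19, adjusted p = 0.948), with treated libraries from 4.55 to 24.9 CPM against 10.1 to 18.2 CPM after vehicle. For Crym the log2 values were -0.11 ± 0.22 in ARC (adjusted p = 0.951) and -0.06 ± 0.14 in NTS (adjusted p = 0.999). Vim in ARC averaged 52.6 ± 10.2 and 45.8 ± 7.53 CPM, with 9 of 10 treated libraries below the vehicle median (log2 -0.20 ± 0.10, adjusted p = 0.726). In ARC without the libraries numbered 1, the log2 values were 0.32 ± 0.34 for Rax, 0.19 ± 0.21 for Gpr50, -0.10 ± 0.22 for Crym and -0.25 ± 0.10 for Vim, none called.

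The receptor genes had the narrowest intervals. For Thra the log2 treatment values were 0.03 ± 0.05 in PVN, -0.04 ± 0.05 in ARC and -0.03 ± 0.04 in NTS. For Thrb they were -0.01 ± 0.07, 0.03 ± 0.07 and -0.05 ± 0.09. With the libraries numbered 1 left out they were 0.01, -0.02 and -0.03 for Thra and -0.00495, 0.05 and -0.07 for Thrb. Adjusted p-values of both receptor genes lay between 0.888 and 0.999. Whether the treatment effect differed between regions was tested directly, and 0 of the 8 genes passed in each of the 3 tests, against 0.0487%, 0.0904% and 0% of all genes. For Dio2 the effect in PVN minus that in NTS was -0.19 ± 0.44 on the log2 scale (adjusted p = 0.9999), and for Foxj1 0.07 ± 0.26 (adjusted p = 0.9999). At an unadjusted p under 0.05 stood Gpr50 in both tests that involve the NTS, where its level was 1.07 ± 1.31 CPM after vehicle and 0.389 ± 0.353 CPM after treatment; vehicle library 4 alone had 4.35 CPM.

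**Figure D4:**
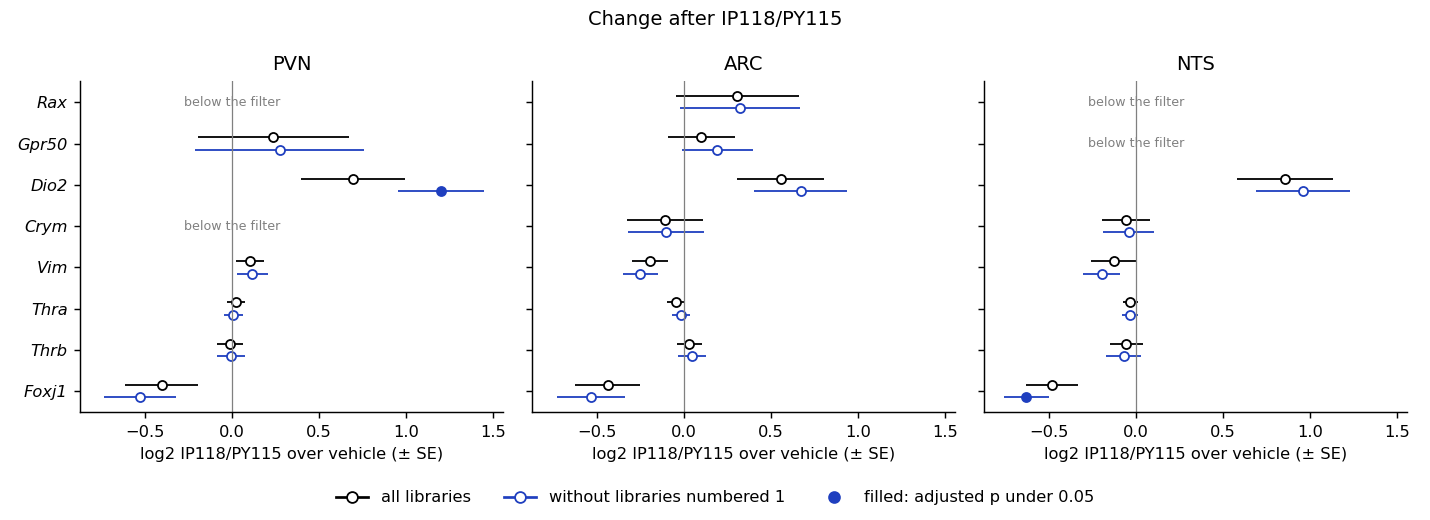
Log2 change after IP118/PY115 (x axis, ± SE) of each gene (y axis) in PVN, ARC and NTS, with all libraries (black) and without the libraries numbered 1 (blue); filled points passed the adjusted p of 0.05. The filled points are Dio2 in PVN at 1.20 and Foxj1 in NTS at -0.63. Both are blue, and libraries left out there were at an end of their groups for these genes. Genes below the filter on low counts have no point.

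Targets and partners of the receptors were read from a list of 23 genes. With every library kept, 0 were called by edgeR in any region, with 4, 3 and 2 genes at an unadjusted p under 0.05. In the treated groups 12 of 21 tested were higher in PVN, 15 of 22 in ARC and 10 of 21 in NTS, and the list's median log2 changes were 0.02, 0.03 and -0.02. DESeq2 called Tbl1x in PVN (1.56% of all genes) and Klf9 in ARC (0.438%), and voom also called Tbl1x in PVN (3.79%). The 2 genes of smallest p were Tbl1x and Klf9 in PVN, Klf9 and Ncoa1 in ARC, and Hr and Klf9 in NTS. Klf9 and Hr are induced by the active hormone in brain, Klf9 also by glucocorticoids; Tbl1x belongs to the receptors' corepressor complex and Ncoa1 encodes a coactivator. Klf9 went from 68.2 ± 10.6 to 81.1 ± 11.9 CPM in PVN (adjusted p = 0.321), from 55.5 ± 9.40 to 74.2 ± 12.1 CPM in ARC (adjusted p = 0.134) and from 80.5 ± 12.2 to 101 ± 19.5 CPM in NTS (adjusted p = 0.368). Hr in NTS went from 33.4 ± 12.5 to 53 ± 16.1 CPM (adjusted p = 0.357).

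Klf9 and Hr are the genes by which the libraries numbered 1 were set apart, so their values without those libraries are a description, with no test. For Klf9 the log2 changes were then 0.33 ± 0.08 (PVN), 0.53 ± 0.08 (ARC) and 0.43 ± 0.08 (NTS). In ARC its treated libraries, from 68.8 to 102 CPM, then lay above all vehicle libraries, from 46.4 to 61.3 CPM. For Hr they were 0.48 ± 0.12 (PVN), 0.26 ± 0.08 (ARC) and 0.90 ± 0.15 (NTS). Of the other list genes only Tbl1x in PVN passed without those libraries; it rose by 0.28 ± 0.07 (adjusted p = 0.0194), where 3.22% of all genes were called. The list's median log2 changes were then 0.03, 0.05 and -0.0019, against -0.02, 0.0015 and -0.0021 over all genes.

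Of the transport and metabolism genes none of the 11 tested was called by edgeR with every library kept. At an unadjusted p under 0.05 stood 3 genes in PVN, 1 in ARC and 3 in NTS. Voom called Sult1a1 in PVN, where it called 3.79% of all genes. The list's median log2 changes were 0.13 (PVN), 0.01 (ARC) and 0.04 (NTS), and 0.22, -0.04 and 0.03 without the libraries numbered 1. Those of smallest p were Ube2g2 and Sult1a1 in PVN, Slc7a8 and Ube2g2 in ARC, and Sult1a1 and the amino acid transporter gene Slc7a5 in NTS. Sult1a1, a sulfotransferase, went from 7.22 ± 3.59 to 13 ± 4.06 CPM in NTS (log2 0.88 ± 0.25, adjusted p = 0.260) and rose there by 1.14 ± 0.19 without the libraries numbered 1 (adjusted p = 0.00108). In PVN it changed by 0.57 ± 0.22 over all libraries (adjusted p = 0.329) and by 0.80 ± 0.20 without those numbered 1 (adjusted p = 0.0223). No other gene of the list passed in either region. Without those libraries 3.22% of all genes were called in PVN and 1.18% in NTS.

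Of the 18 tanycyte markers 14 were tested in PVN, 17 in ARC and 16 in NTS. None was called by edgeR with every library kept, with 4, 4 and 5 at an unadjusted p under 0.05 and median log2 changes of -0.02, 0.05 and 0.05. DESeq2 called Sox2 in PVN (1.56% of all genes) and ARC (0.438%) and Rgcc in NTS (0.46%). Voom also called Sox2 in PVN (3.79%) and Rgcc in NTS (0.139%). Sox2, a transcription factor of neural stem cells, tanycytes and astrocytes, went from 26.3 ± 7.31 to 17.3 ± 5.08 CPM in PVN (adjusted p = 0.125) and from 33.1 ± 4.06 to 26.2 ± 3.40 CPM in ARC (adjusted p = 0.135). Rgcc, a cell cycle regulator, went from 11.1 ± 2.42 to 15.5 ± 2.30 CPM in NTS (log2 0.49 ± 0.12, adjusted p = 0.142), where Tgfb2 was second (-0.32 ± 0.09, adjusted p = 0.258). For Sox2 and Rgcc the libraries numbered 1 lay at the ends of most of their groups, so values without them are a description, with no test. The Sox2 log2 changes were then -0.80 ± 0.11 in PVN, -0.36 ± 0.09 in ARC and -0.74 ± 0.08 in NTS. Those of Rgcc were 0.59 ± 0.12, 0.71 ± 0.12 and 0.58 ± 0.11. No other tanycyte marker passed without those libraries, where 3.22%, 1.14% and 1.18% of all genes did. In PVN and NTS, Sox2 was lowest in vehicle library 1 and highest in treated library 1 (22.6 and 61.2 CPM in NTS). In ARC neither library stood at an end for Sox2. Rgcc was lowest in treated library 1 of all 3 regions, and highest in vehicle library 1 in ARC alone. Sox2 in NTS is named after its values were seen.

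**Figure D5:**
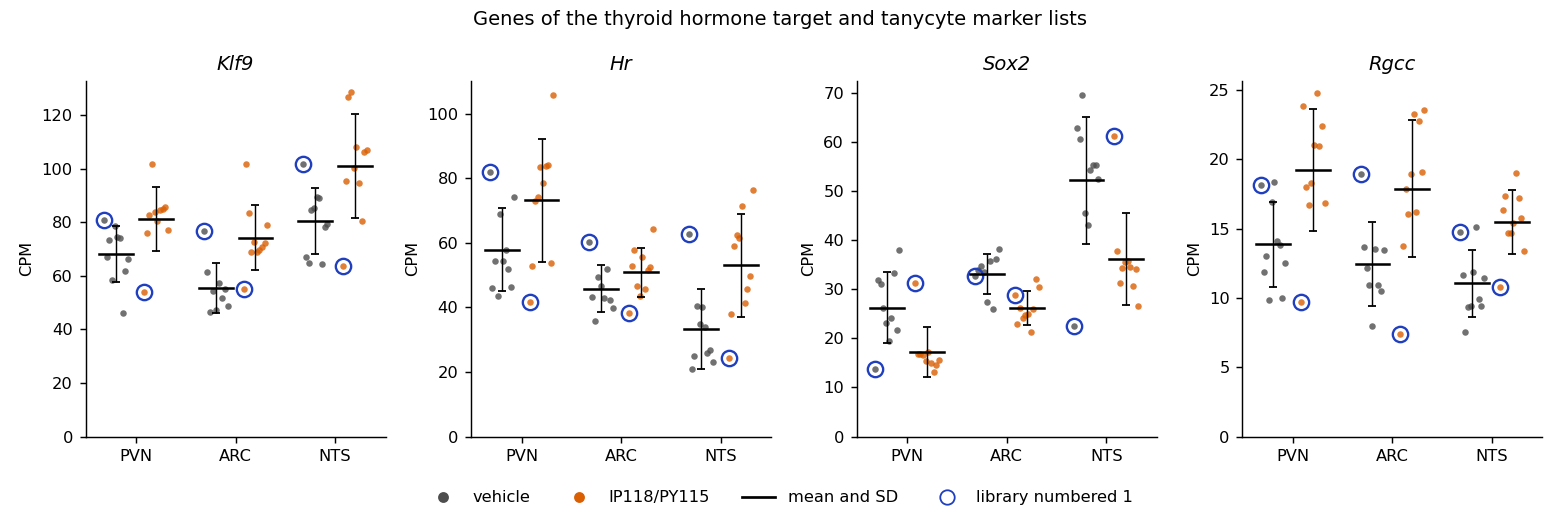
Level in CPM (y axis, from 0) of the thyroid hormone targets Klf9 and Hr and the tanycyte list genes Sox2 and Rgcc by region (x axis), 1 point per library, grey for vehicle and orange for IP118/PY115, with mean and SD; blue circles mark the libraries numbered 1. For Klf9 the circled vehicle library is the highest of its group and the circled treated library the lowest of its group in all 3 regions.

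Trh passed the test of a different effect in PVN and NTS (log2 -5.31 ± 1.17, adjusted p = 0.0430), the only receptor partner or target to do so. It rests on 1 library. In NTS treated library 9 held 44.2 CPM (1046 reads), the next highest treated library 1.62 CPM and the highest vehicle library 0.666 CPM. In PVN it averaged 609 ± 96.8 CPM after vehicle and 569 ± 42.4 CPM after treatment.

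Whether the genes varied together between dissections was examined within each region after removing the treatment means. Of 58 pairs (PVN 15, ARC 28, NTS 15), 0 passed after adjustment (permutation test, 100000 resamples, two-sided). The strongest in ARC was Crym with Vim (Pearson r = 0.65, permutation p = 0.00271, adjusted p = 0.0799; Spearman rho = 0.56, permutation p = 0.0146; n = 19). The r was 0.36 without the 2 libraries farthest from the median of Crym, 0.57 within vehicle and 0.77 within treated libraries. In NTS, Dio2 with Crym had r = -0.62 (permutation p = 0.00551, adjusted p = 0.0799, rho = -0.65, permutation p = 0.00356, n = 20), and r = -0.54 without the 2 farthest libraries. Within vehicle libraries r was only -0.21, and within treated ones -0.88. In NTS, Vim with Foxj1 had r = 0.59 (permutation p = 0.00475, adjusted p = 0.0799, rho = 0.57, permutation p = 0.0123), and 0.37 without the 2 farthest. Its r was 0.83 within vehicle and 0.27 within treated libraries.

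Each gene's closest companion over the libraries of the region with its highest vehicle mean is given as a description, after removing the treatment means. Over 19 ARC libraries Rax was most like Col23a1 (r = 0.75), itself on the tanycyte list. Gpr50 was most like the neuropeptide gene Adcyap1 (r = 0.86), Dio2 like Miga1 (r = 0.83) and Thrb like Fiz1 (r = 0.78). Over the 20 of NTS, Crym was most like Ralyl (r = 0.87), Vim like Ecm2 (r = 0.87), Thra like 2900011O08Rik (r = 0.75) and Foxj1 like Szrd1 (r = 0.86). These are the highest values among 13483 genes in ARC and 13695 in NTS, and the libraries share differences in depth and dissection.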

How the data were processed

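The deposited table holds 1 column of raw read counts per library, 59 in all, for 21935 Ensembl genes; the authors made it with bcl2fastq 2.20.0.422, STAR 2.5.2a and GRCm38, per the submitters' processing notes. The counting tool, its strand setting and the annotation release are not given in the sources used here. Symbols matched for 21858 IDs (77 did not), with GENCODE M21 for coordinates. Libraries were prepared with a stranded kit for polyadenylated RNA, per the labels' protocols.

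Treatment was tested within each region with edgeR 4.0.16 (quasi-likelihood, robust; R 4.3.3), and regions and differences of effects in 1 fit of all 59 libraries. Genes passed filterByExpr (minimum count 10, total 15), scaling was TMM, and p-values were adjusted (Benjamini-Hochberg) over all genes tested. Totals ran from 3964093 to 28510118 counts, so 3 reads are 0.106 to 0.766 CPM, which limits Rax, Gpr50 and Crym outside their high regions. Alternatives were DESeq2 1.42.0, voom with quality weights (limma 3.58.1), other scalings, filters and covariates, and leaving out libraries. The 8 genes and the marker lists were chosen with earlier results of these data known. Other genes named are those of smallest p in a list: up to 4 called ones or, with none called, 2. Replicates are separate samples per the labels, which name no animal for a library, so p-values measure the spread between these samples.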

Additional observations from a re-analysis of the deposited data

Results flagged for a closer look

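Among 48 groups of 9 or 10 libraries (8 genes, 6 groups), 10 held 1 library far from the others by Dixon's test; chance gives about 1 in 20. Treated ARC library 9 stood out for 3 genes: Rax at 7.51 CPM (next 4.14 CPM), Crym at 7.80 CPM (next 4.91 CPM) and Vim at 64.9 CPM (next 49.3 CPM). It was also the highest of its group for Gpr50, at 24.9 CPM. Treated ARC library 2 held 39.1 CPM of Dio2 (next 21.9 CPM), and it had the highest sum of oligodendrocyte markers, 6014 CPM, and the lowest Gpr50 of its group, 4.55 CPM.

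Vehicle PVN library 1 held 4.82 CPM of Dio2 (next 2.04 CPM). Vehicle PVN library 3 held 1.79 CPM of Crym, from 7 reads (next 0.825 CPM), and vehicle NTS library 4 held 4.35 CPM of Gpr50 (next 2.10 CPM). Thra stood at 820 CPM (819.7) in vehicle PVN library 8 (next 685 CPM) and at 651 CPM in vehicle ARC library 9 (next 574 CPM). Thrb stood at 76.3 CPM in treated ARC library 10 (next 64.7 CPM).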

How the results depend on the processing

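The counts of genes differing between regions kept within 1 of their value in every alternative run, and no called regional difference changed direction. Vim between vehicle ARC and NTS missed the threshold with an oligodendrocyte score as covariate (log2 -0.40, adjusted p = 0.0717), while Dio2 between them passed under 6 alternatives (0.60 to 1.70, adjusted p from 6.91e-05 to 0.0441). After IP118/PY115 the count in PVN was 1 with voom and 1 without the libraries numbered 1, an alternative chosen after seeing the data, and 0 to 1 when single libraries were left out; in NTS it was 1 without the libraries numbered 1. Over all genes the count in PVN, 88, was 209 with DESeq2, 508 with voom, 429 without the libraries numbered 1 and 6 with log10 total as covariate. In ARC, where it was 0, DESeq2 gave 59 and voom 5; in NTS, also 0, DESeq2 gave 63 and voom 19.

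Values that changed sign were all short of the threshold, and the cause was not tested. With voom these were Foxj1 -0.0235 (vehicle PVN minus ARC), Gpr50 0.0679 (vehicle PVN minus NTS), Thrb 0.00689 (treatment, PVN) and Thra 0.000409 (treatment, ARC). Differences of effects with voom were Dio2 0.46 (PVN minus NTS), and Crym 0.10, Thra 0.0158 and Foxj1 -0.0042 (ARC minus NTS). With the oligodendrocyte covariate they were Foxj1 -0.000521 (vehicle PVN minus ARC), Rax -0.0465 and Vim 0.00795 (vehicle PVN minus NTS), Thra -0.0207 (treated PVN minus NTS) and Foxj1 -0.0224 (effects, ARC minus NTS). With the ependymal covariate they were Foxj1 -0.0112 (effects, PVN minus ARC) and Crym 0.0029 (treatment, ARC). Treated Thra, PVN minus NTS, was -0.0235 with totals alone and -0.00690 with log10 total. Vehicle Vim, PVN minus NTS, was 0.0142 without libraries of low total and 0.0110 without the vehicle libraries numbered 5553 to 5557 by the labels. Without those 5, Rax was -0.0320 and Gpr50 -0.0111 (effects, PVN minus ARC), Thra 0.0239 (effects, ARC minus NTS) and Thrb 0.00318 (treatment, PVN). Without the libraries numbered 1, Dio2 was 0.25 (effects, PVN minus NTS) and Thra 0.00694 (effects, ARC minus NTS). Leaving out single libraries gave treatment ranges of -0.0347 to 0.0360 for Thrb in PVN, -0.0106 to 0.0610 for Thrb in ARC, -0.10 to 0.00369 for Crym in NTS and -0.0129 to 0.20 for Gpr50 in ARC.

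No paired analysis was possible because replicate numbers follow the order of deposit and the labels tie no library to an animal. No NTS library had a low total, so that alternative has no NTS value.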
